A study of Mus musculus with 6 samples.

Results

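Mapt and Prnp encode the microtubule-binding protein tau and the cellular prion protein. Both genes were found by symbol in each of the 6 single-nucleus matrices, where they are 2 of 33457 listed features, and each was followed through neurons and glia. The libraries came from hippocampus by their titles, although the extraction text names the left hemisphere and the tissue label names brain. All mice were 9 months old and of strain B6. FE3 and FE4 nuclei came from untreated mice with the genotypes APOE3 fl/fl and APOE4 fl/fl, in which a human APOE gene flanked by loxP sites stands in place of the mouse gene. The 4 TAFE libraries came from mice with P301S tau, Aldh1la1CreERT (spelled as in the labels) and either APOE3/fl/fl or APOE4 fl/fl. TAFE3_oil and TAFE4_oil mice received oil, and TAFE3_tam and TAFE4_tam mice received tamoxifen, which switches the Cre enzyme on. Aldh1l1 is an astrocyte gene, so its promoter directs Cre mainly to astrocytes.

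Each of the 6 groups was 1 library, and the sources used here do not say how many animals it pools. No test between animals was therefore possible, no p-value is given, and every interval below is a 95% interval for counting error alone. A TAFE library differed from its FE library, the one with the same APOE allele, in the tau transgene, the Cre transgene and the injection, and these cannot be told apart. A change in RNA per nucleus also cannot be told apart from a change in which nuclei of a class were recovered.

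Tau binds and stabilises microtubules, most of all in axons, and it is the protein that aggregates in tauopathies. P301S is a mutation in the repeat domain of human tau that causes inherited frontotemporal dementia. The prion protein is a membrane-anchored glycoprotein of neurons and glia whose promoter is widely used to drive transgenes in mouse brain. In the P301S line called PS19, a human tau cDNA stands behind the mouse prion protein promoter. The labels name P301S without a line or a promoter. Neither human MAPT nor Cre was found among the feature names, so a UMI (a unique molecular identifier, 1 counted RNA molecule) could be assigned to the mouse genes only. Whether any Mapt or Prnp UMI came from the transgene was not tested, because the reads were not used here.

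In the GENCODE vM21 annotation of GRCm38, Prnp (ENSMUSG00000079037) lies on the plus strand of chromosome 2 from 131909928 to 131938429, and Mapt (ENSMUSG00000018411) on the plus strand of chromosome 11 from 104231390 to 104332090. The 250 bases before the Prnp start are printed because this is the proximal part of the promoter on which such a transgene relies. They are RefSeq sequence of GRCm38.p6, plus strand, chr2:131909678-131909927. Capitals mark matches on either strand to 3 short promoter motifs. The GC box, which Sp1 family factors bind, was searched as GGGCGG. The box named CCAAT, which nuclear factor Y binds, was searched as those 5 letters. The TATA box, where the general transcription machinery can assemble, was searched as TATAAA.
Prnp promoter: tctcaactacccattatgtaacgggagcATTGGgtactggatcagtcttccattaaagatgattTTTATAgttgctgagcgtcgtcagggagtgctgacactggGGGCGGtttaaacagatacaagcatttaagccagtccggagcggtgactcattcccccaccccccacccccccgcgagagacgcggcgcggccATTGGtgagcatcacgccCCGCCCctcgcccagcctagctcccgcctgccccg

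The stretch held 2 matches to the GC box, 2 to the CCAAT box and 1 to the TATA box, and no match overlapped another. The TATA match was on the minus strand, printed as TTTATA, at position -186 relative to the annotated Prnp start. These are matches of letters only, and whether any of them acts in the promoter was not tested. Of 32851 promoter stretches of this kind, 32.7% held a match to the GC box, 33.85% to the CCAAT box and 12.4% to the TATA box. GC content was 58.8% and the stretch had 17 CpG dinucleotides, against medians of 52.4% and 6 over all promoters. The extent of the promoter in the transgene was not analysed here, and Mapt had no entry in the promoter table.

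The 6 libraries held 96252 barcodes and 39050503 to 49083723 UMIs each. After filters, 69225 nuclei remained, 9881 to 14349 per library, with a median of 2157 to 2578 UMIs per nucleus. Clustering gave 30 clusters. Of these, 20 were assigned to 16 named classes by fixed marker genes, and 10 stayed unnamed. Between 65 and 83 barcodes were shared by any pair of libraries, none with the same UMIs and genes. As a check of the labels, human APOE was read in astrocytes. It stood at 12024 and 12429 CPM in FE3 and FE4 (CPM, the counts of a gene scaled to 1000000 UMIs of the class in that library), 16348 and 19249 CPM in TAFE3_oil and TAFE4_oil, and 5205 and 5226 CPM in TAFE3_tam and TAFE4_tam. APOE in astrocytes was thus lower in both tamoxifen libraries than in the other 4. FE4 and TAFE4_tam stood apart in mitochondrial reads, with medians of 0.625% and 0.695% of UMIs per barcode against 2.01% to 3.23% in the other 4 libraries.

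Prnp was higher in the TAFE libraries than in both FE libraries in every class measured in all 6, neurons and glia alike. These were 9 classes with at least 50 nuclei per library, namely granule, CA1, CA2/CA3, subicular/cortical and inhibitory neurons, astrocytes, oligodendrocytes, oligodendrocyte precursors (OPC) and microglia. Astrocytes carried the highest Prnp level in all 6 libraries, at 556 to 681 CPM in TAFE and 288 to 305 CPM in FE libraries. Mapt was higher in 7 of the 9 classes, and oligodendrocytes and microglia were the classes where TAFE and FE libraries overlapped. Over all genes and these 9 classes, 17.1% of 68014 gene and class combinations had all 4 TAFE libraries above both FE libraries, with 11.9% to 22.9% in single classes. Leaving out any 1 of the 6 libraries cannot lower these counts, so it is no check of them. The count for Prnp was then 9 each time and for Mapt 7 or 8, with no share of all genes beside it.

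In granule neurons of the dentate gyrus, Prnp was at 179 CPM in FE3 and 131 CPM in FE4. The 4 tau libraries gave 284 CPM in TAFE3_oil, 298 CPM in TAFE3_tam, 343 CPM in TAFE4_oil and 326 CPM in TAFE4_tam. The lowest TAFE value was thus well above the higher FE value, and oil and tamoxifen libraries lay together. The log2 ratio was 0.67 for TAFE3_oil against FE3, with an interval of 0.51 to 0.82, and 1.39 for TAFE4_oil against FE4, with an interval of 1.24 to 1.54. CA1 pyramidal neurons showed 234 and 168 CPM in FE3 and FE4, 348 and 352 CPM in TAFE3_oil and TAFE3_tam, and 375 and 343 CPM in TAFE4_oil and TAFE4_tam. In CA2/CA3 pyramidal neurons the FE libraries had 124 and 82.3 CPM, the TAFE3 libraries 208 and 188 CPM and the TAFE4 libraries 243 and 225 CPM. CA2/CA3 neurons had the lowest Prnp level of the 9 classes in 5 libraries, while inhibitory neurons were lowest in TAFE4_tam.

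Inhibitory neurons, which release GABA, repeated this pattern at a low level. Prnp there was 136 CPM in FE3, 97.4 CPM in FE4, 220 and 214 CPM in the TAFE3 libraries and 272 and 217 CPM in the TAFE4 libraries. Subicular/cortical excitatory neurons gave 183 and 139.5 CPM in FE3 and FE4 against 278.0 to 294.9 CPM in the 4 TAFE libraries. This class drew on different clusters in the 2 genotypes. Its own marker list led its Foxp2 and Tle4 cluster, with a median log2 fold of 0.54 over all other nuclei. General excitatory markers led its Rorb and Cux2 cluster (0.09) and its Tshz2 cluster (0.17). The highest list in its Fn1 cluster stood at -0.06, so the class name is less sure for these clusters. The Rorb and Cux2 cluster had 230 FE nuclei and 7176 TAFE nuclei, so the level was also read within each cluster. In the Rorb and Cux2 cluster Prnp was 172.5 CPM over both FE libraries and 270 CPM over the 4 TAFE libraries. In the Foxp2 and Tle4 cluster it was 159.5 and 299 CPM, in the Tshz2 cluster 147 and 311 CPM, and in the Fn1 cluster 176 and 367 CPM. Prnp was therefore higher in TAFE nuclei within each of the 4 clusters, and the same held in both inhibitory clusters (110 and 215 CPM in the Sst and Pvalb cluster, 119 and 263 CPM in the Vip and Adarb2 cluster).

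Astrocytes, the cells that support synapses and take up glutamate, had 305 CPM of Prnp in FE3 (interval 271 to 342) and 288 CPM in FE4 (265 to 312). Their TAFE levels were 636 CPM in TAFE3_oil, 647 CPM in TAFE3_tam, 681 CPM in TAFE4_oil and 556 CPM in TAFE4_tam. No other of the 9 classes reached the astrocyte level within the same library. The log2 ratios were 1.06 (0.85 to 1.27) and 1.09 (0.87 to 1.30) for TAFE3_oil and TAFE3_tam, and 1.24 (1.06 to 1.42) and 0.95 (0.74 to 1.16) for TAFE4_oil and TAFE4_tam. After each nucleus was thinned to 1000 UMIs, 26.6% and 24.97% of FE3 and FE4 astrocytes had a Prnp UMI, against 41.7%, 45.5%, 48.6% and 38.8% in TAFE3_oil, TAFE3_tam, TAFE4_oil and TAFE4_tam. Before thinning the shares were 38.1%, 40.9%, 62.9%, 64.5%, 69.5% and 61.0% in the same order, with 10 to 90 astrocytes per library too shallow to thin. In granule neurons the thinned shares were 17.5% and 12.2% in FE3 and FE4 and 25.1% to 30.8% in the TAFE libraries.

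Oligodendrocytes, the myelin-forming cells, held the second place for Prnp in all 6 libraries. Their levels were 267 CPM in FE3 and 248 CPM in FE4, then 405, 412, 423 and 403 CPM in TAFE3_oil, TAFE3_tam, TAFE4_oil and TAFE4_tam. The 4 TAFE libraries were close to each other and apart from both FE libraries. OPC had 202 and 159 CPM in the FE libraries and 277 to 334 CPM in the TAFE libraries. Microglia, the resident macrophages, had 171 CPM in FE3 (129 to 222) and 208 CPM in FE4 (170 to 251) against 319, 331, 357 and 341 CPM in the TAFE libraries. Microglial Prnp in FE3 rested on 55 UMIs and in FE4 on 106 UMIs. When nuclei with more than 1% mitochondrial UMIs were left out, the log2 ratio in microglia for TAFE4_oil against FE4 was 0.15 (-0.52 to 0.80) instead of 0.78 (0.48 to 1.10).

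**Figure D1:**
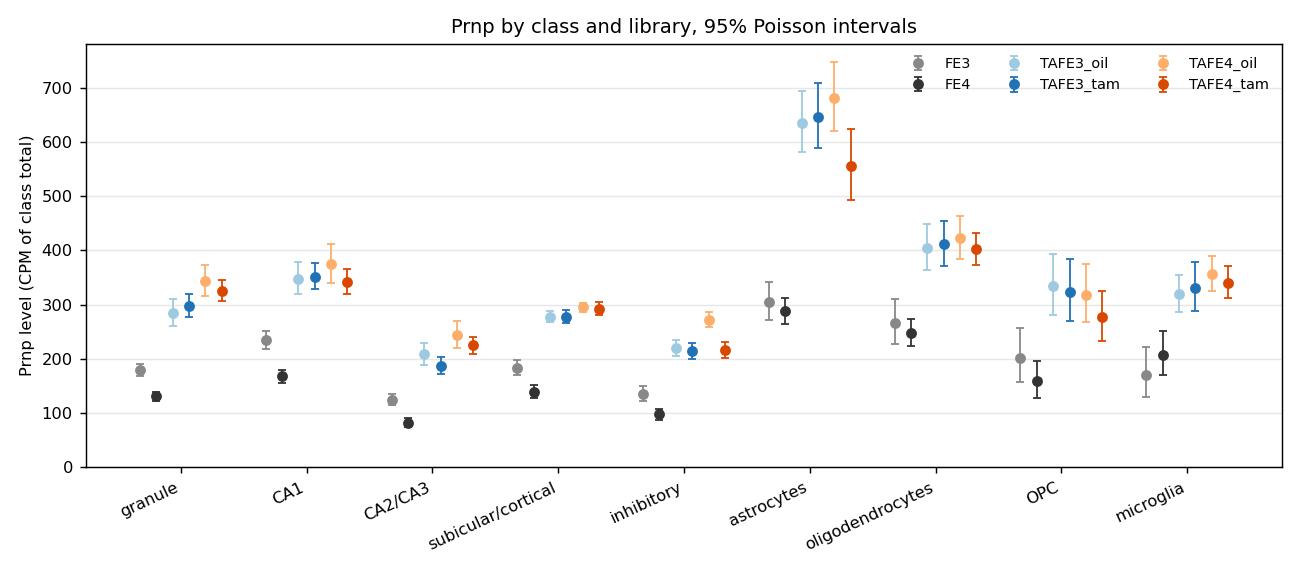
Prnp level (CPM of the class total, linear axis from 0) in 9 classes, 1 point per library with its 95% Poisson interval. The 4 TAFE points lie above both FE points in each class, and astrocytes are highest, at 556 to 681 CPM in TAFE libraries and 288 to 305 CPM in FE libraries.

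Mapt followed another order of classes. Oligodendrocytes had the highest Mapt level in all 6 libraries, with an interval that separated them from the next class each time, and microglia had the lowest in 5 of 6. In granule neurons Mapt was 216 CPM in FE3 and 192 CPM in FE4, then 325, 290, 301.3 and 310 CPM in TAFE3_oil, TAFE3_tam, TAFE4_oil and TAFE4_tam. CA1 neurons had 209 and 197 CPM in the FE libraries and 293 to 334 CPM in the TAFE libraries. CA2/CA3 neurons had 244 and 242 CPM, then 336, 301.4, 358 and 343 CPM. All 3 classes thus showed TAFE values above both FE values, by smaller ratios than for Prnp.

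Subicular/cortical neurons had 258 and 234 CPM of Mapt in FE3 and FE4 and 317 to 364 CPM in the TAFE libraries. Within the Rorb and Cux2 cluster Mapt was 239 CPM in FE and 342 CPM in TAFE nuclei, and within the Foxp2 and Tle4 cluster 252 and 359 CPM. Inhibitory neurons had 198 and 222 CPM in FE3 and FE4 and 272 to 304 CPM in TAFE libraries. The neuronal log2 ratios of Mapt ran from 0.29 in inhibitory neurons (TAFE4_tam) to 0.77 in CA1 neurons (TAFE4_tam). Among glia, astrocytes had 130 and 162 CPM of Mapt in FE3 and FE4 against 251, 264, 290 and 269 CPM in TAFE3_oil, TAFE3_tam, TAFE4_oil and TAFE4_tam. Both APOE3 ratios in astrocytes, 0.96 (0.63 to 1.29) and 1.03 (0.69 to 1.36), were the largest Mapt ratios of the 9 classes in those comparisons. OPC had 241 and 186 CPM in the FE libraries and 329, 331, 387 and 340 CPM in the TAFE libraries.

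Oligodendrocytes did not share the higher Mapt level, although their Prnp level was higher. Their Mapt level was 1298 CPM in FE3 (1210 to 1391), 1259 CPM in FE4 (1206 to 1315), 1226 CPM in TAFE3_oil (1153 to 1301), 1291 CPM in TAFE3_tam (1219 to 1366) and 1220 CPM in TAFE4_oil (1154 to 1289). TAFE4_tam was the exception, at 1557 CPM (1500 to 1616), above every other library. The log2 ratios were -0.08 (-0.22 to 0.05), -0.01 (-0.14 to 0.12), -0.05 (-0.15 to 0.06) and 0.31 (0.22 to 0.39) for TAFE3_oil, TAFE3_tam, TAFE4_oil and TAFE4_tam against their FE library. With the class totals scaled by TMM, a trimmed-mean normalization, the ratio was -0.28 for TAFE4_oil and 0.19 for TAFE4_tam. The share of oligodendrocytes with a Mapt UMI, thinned to 1000 UMIs, was 72.7% and 63.0% in FE3 and FE4 and 67.9%, 70.8%, 69.2% and 74.2% in the TAFE libraries. Thinning left out 389 of 620 oligodendrocytes in FE3, 1254 of 1759 in FE4 and 344 to 920 per TAFE library as too shallow. Over all oligodendrocytes, unthinned, the shares were 68.1% and 65.6% in the FE libraries and 69.8%, 68.9%, 70.1% and 75.6% in the TAFE libraries.

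The same added CPM makes a smaller ratio where the starting level is high. CPM is a share of the class total and not an amount of RNA per nucleus. In TAFE3_oil the median was 985.5 UMIs per nucleus in oligodendrocytes and 2349 in granule neurons. The Mapt level added in oligodendrocytes, TAFE minus FE, was -72.5 CPM (-189 to 43.8) for TAFE3_oil, -7.32 CPM (-123 to 109) for TAFE3_tam, -39.4 CPM (-126 to 47.0) for TAFE4_oil and 298 CPM (219 to 377) for TAFE4_tam. In granule neurons it was 110 CPM (80.4 to 139), 74.0 CPM (50.1 to 97.9), 109 CPM (81.3 to 137) and 118 CPM (97.7 to 139) in the same order. In astrocytes it was 122, 134, 128 and 107 CPM. The upper bounds in oligodendrocytes for TAFE3_oil and TAFE4_oil lay below the lower bounds in granule neurons and astrocytes, while the bounds for TAFE3_tam overlapped them. Under the main settings, the CPM added to Mapt in granule neurons and astrocytes was thus not seen in oligodendrocytes of the 2 oil libraries. In TAFE4_tam it was exceeded. Over the settings tried, the oligodendrocyte log2 ratio for TAFE4_oil ran from -0.28 to 0.12, so this reading depended on the processing.

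**Figure D2:**
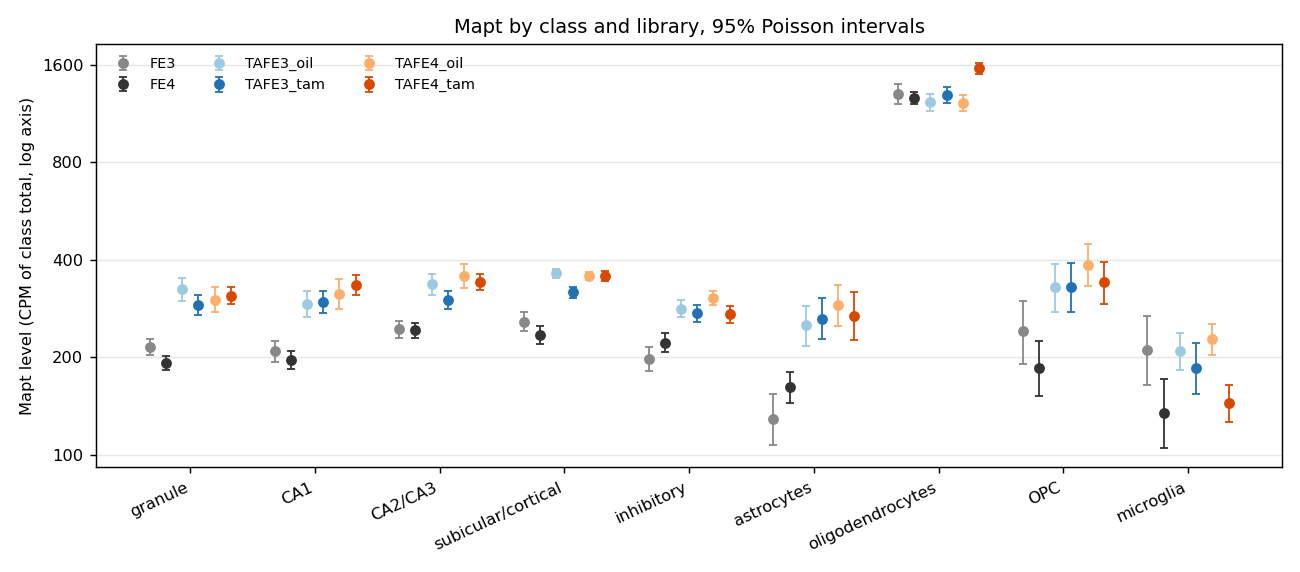
Mapt level (CPM of the class total, log axis) in the same 9 classes, 1 point per library with its 95% Poisson interval. Oligodendrocytes stand highest at 1220 to 1557 CPM with TAFE and FE points mixed apart from TAFE4_tam, while the neuronal classes, astrocytes and OPC show TAFE points above FE points.

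In microglia the Mapt level was 211 CPM in FE3, 135 CPM in FE4, 209 CPM in TAFE3_oil, 186 CPM in TAFE3_tam, 227 CPM in TAFE4_oil and 145 CPM in TAFE4_tam. TAFE and FE libraries overlapped. These values were read beside 13 neuronal transcripts (Snap25, Syt1, Camk2a, Nrgn, Rbfox3, Syn1, Slc17a7, Meg3, Snhg11, Celf4, Kcnip4, Grin2a and Grin2b) that microglia should lack and that free RNA in the droplets can carry into every nucleus. The list summed to 39848 CPM in microglia of FE3 and to 13682 to 22663 CPM in the other 5 libraries. At the ratio of Mapt to the list over all nuclei of a library, these transcripts would bring along 88.8% of the microglial Mapt level in FE3, 79.6% in FE4 and 74.1% to 82.6% in the 4 TAFE libraries. In inhibitory neurons the same reckoning gave 175% to 228% of the Mapt level, so it does not measure a share of free RNA. Free RNA itself was not measured. Its part in the microglial Mapt level and in the differences between libraries was not tested.

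The same reckoning gave another picture for Prnp and for the other glia. In microglia it covered 83.0% of the Prnp level in FE3 but 29.1% in FE4 and 26.1% to 45.6% in the TAFE libraries. Prnp UMIs per 1000 UMIs of the neuronal list in microglia were 4.29 (3.23 to 5.58) in FE3 and 9.87 (8.08 to 11.9) in FE4, against 14.9, 14.6, 16.9 and 24.9 in TAFE3_oil, TAFE3_tam, TAFE4_oil and TAFE4_tam. In astrocytes free RNA at that ratio would cover 7.96% to 13.3% of the Prnp level and 22.3% to 42.1% of the Mapt level. In oligodendrocytes it would cover 4.55% to 8.13% of the Mapt level and 15.1% to 20.8% of the Prnp level.

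**Figure D3:**
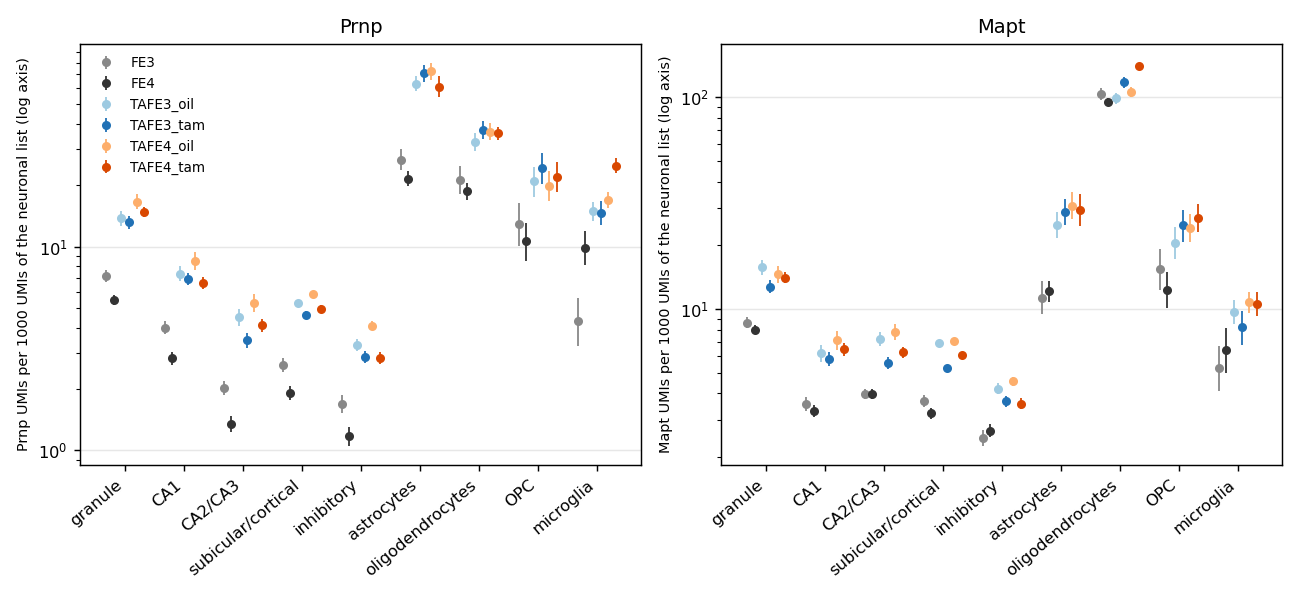
UMIs of Prnp and of Mapt per 1000 UMIs of the 13 neuronal transcripts by class (log axis), 1 point per library with its 95% interval. Microglia have 4.29 to 24.9 for Prnp and 5.30 to 10.8 for Mapt, and oligodendrocytes have 94.9 to 140 for Mapt.

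Set against the background of all genes, Prnp passed a 1.5-fold higher level in most classes and Mapt in fewer. In TAFE3_oil against FE3, 4.13% of all gene and class combinations were at least 1.5-fold higher, and Prnp was so in 9 of 10 classes with enough nuclei. In TAFE3_tam against FE3 the background was 3.34% and Prnp passed in 9 of 10 classes. In TAFE4_oil against FE4 the background was 18.7% and Prnp passed in 12 of 12 classes. For TAFE4_tam against FE4 these were 11.4% and 11 of 13 classes. Mapt passed in 2 of 10, 1 of 10, 7 of 12 and 6 of 13 classes in the same order. The background reached 32.4% in single classes of the TAFE4 comparisons, so a 1.5-fold difference there was common among genes at large. Oil and tamoxifen comparisons of an allele share their FE library.

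FE4 was the low library in these ratios. Prnp in FE4 was below FE3 in all 5 neuronal classes, with a median log2 ratio of -0.37 over 10 classes, and CA2/CA3 neurons lowest at -0.59, the only class past 1.5-fold. In microglia it was higher, at 0.28. Mapt in FE4 was lower than in FE3 in microglia, at -0.65, and higher in astrocytes, at 0.32. Of all gene and class combinations, 8.64% differed by at least 1.5-fold in either direction between FE4 and FE3. The summed level of 84 ribosomal protein genes was also lowest in FE4 in all 9 classes (8051 CPM in granule neurons, against 11743 to 16294 CPM in the other libraries), and its part in the Prnp difference was not tested. With FE3 in place of FE4, a comparison across alleles, the Prnp ratios of TAFE4_oil were 0.94 in granule neurons, 0.97 in CA2/CA3 neurons, 1.01 in inhibitory neurons and 1.16 in astrocytes, and Prnp passed 1.5-fold in 9 of 9 classes. Mapt then passed in 4 of 9 classes for TAFE4_oil and 2 of 10 for TAFE4_tam. The share of all genes past the fold is not given for this control, so these counts have no background beside them. TAFE4_tam shared the low mitochondrial reads of FE4, and in granule neurons of these 2 libraries Prnp was 326 and 131 CPM.

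**Figure D4:**
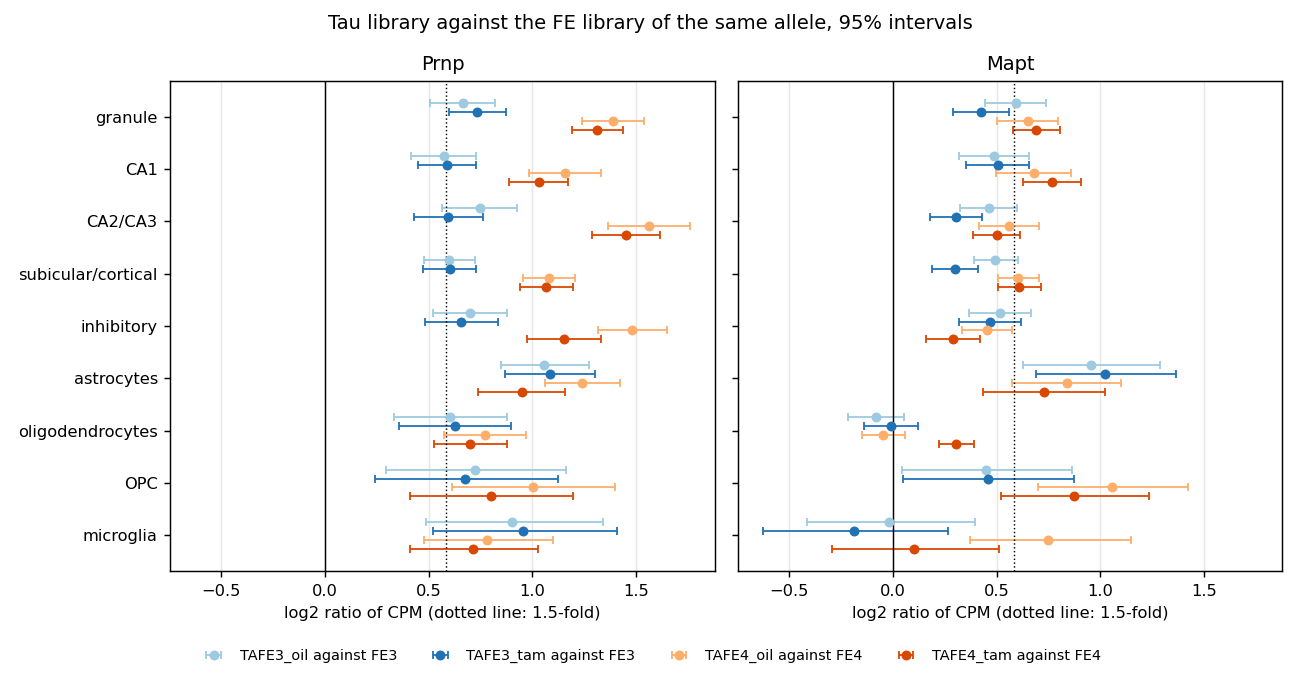
Log2 ratio of CPM, TAFE library against its FE library, for Prnp and Mapt by class, with 95% intervals and a dotted line at 1.5-fold. Prnp ratios lie right of 0 in all 9 classes (0.57 to 1.56), whereas 6 of the 8 Mapt ratios in oligodendrocytes and microglia have intervals that include 0.

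The class pattern of the ratio differed between the APOE3 and the APOE4 pairs, each of which is 1 library against 1, so that allele and library cannot be told apart. With APOE3, Prnp ratios spread little over the 9 classes, with an SD of 0.16 for TAFE3_oil beside a mean counting error of 0.13, and an SD of 0.18 beside 0.13 for TAFE3_tam. Of the 8 other classes, only astrocytes differed from granule neurons with an interval that excluded 0, by 0.39 and 0.35 higher. These values are for the main settings. Over the other settings tried, the ratio for TAFE3_oil and TAFE3_tam fell as low as 0.29 and 0.42 in granule neurons. In CA2/CA3 neurons it rose as high as 1.06 and 0.92. With APOE4 the spread was 0.29 beside 0.11 for TAFE4_oil and 0.26 beside 0.11 for TAFE4_tam. There 4 and 6 of the 8 classes lay below granule neurons with an interval that excluded 0, and none lay above. Against FE3, however, TAFE4_oil had 0.94 in granule neurons, 0.97 in CA2/CA3 neurons, 0.66 in oligodendrocytes and 1.16 in astrocytes. Astrocytes then lay above granule neurons, whereas against FE4 they lay below (1.24 and 1.39) and CA2/CA3 neurons were highest (1.56). In added CPM, astrocytes gained most Prnp in all 4 comparisons, by 331, 342, 393 and 268 CPM.

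Mapt ratios spread more than counting error in all 4 comparisons, with an SD of 0.31, 0.34, 0.30 and 0.26 beside mean errors of 0.12, 0.13, 0.11 and 0.11. The 2 genes did not share 1 class pattern. The Prnp ratio exceeded the Mapt ratio with an interval that excluded 0 in 3, 5, 7 and 7 of 9 classes, and the reverse occurred in none. The gap was largest in microglia for the APOE3 pairs, at 0.92 (0.35 to 1.49) and 1.14 (0.54 to 1.75), and was 0.69, 0.63, 0.82 and 0.40 in oligodendrocytes. For the APOE4 pairs it was 0.03 (-0.45 to 0.51) and 0.62 (0.12 to 1.11) in microglia, against 1.03 and 0.86 in inhibitory neurons and 1.00 and 0.95 in CA2/CA3 neurons.

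Correlations over the 9 classes are given as a description only, since the points share their libraries and an added level contains the FE level. The Prnp level in the FE library and the Prnp level added in the TAFE library had a Pearson r of 0.78, 0.80, 0.62 and 0.59 (Spearman 0.72, 0.67, 0.23 and 0.40) for TAFE3_oil, TAFE3_tam, TAFE4_oil and TAFE4_tam. Without astrocytes r was 0.63, 0.65, -0.07 and 0.09, so in the APOE4 pairs it rested on that class. The Prnp level in the FE library and the Mapt level added had r of -0.18, 0.24, -0.29 and 0.34. Prnp and Mapt ratios correlated at 0.33, 0.28, 0.13 and 0.23.

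**Figure D5:**
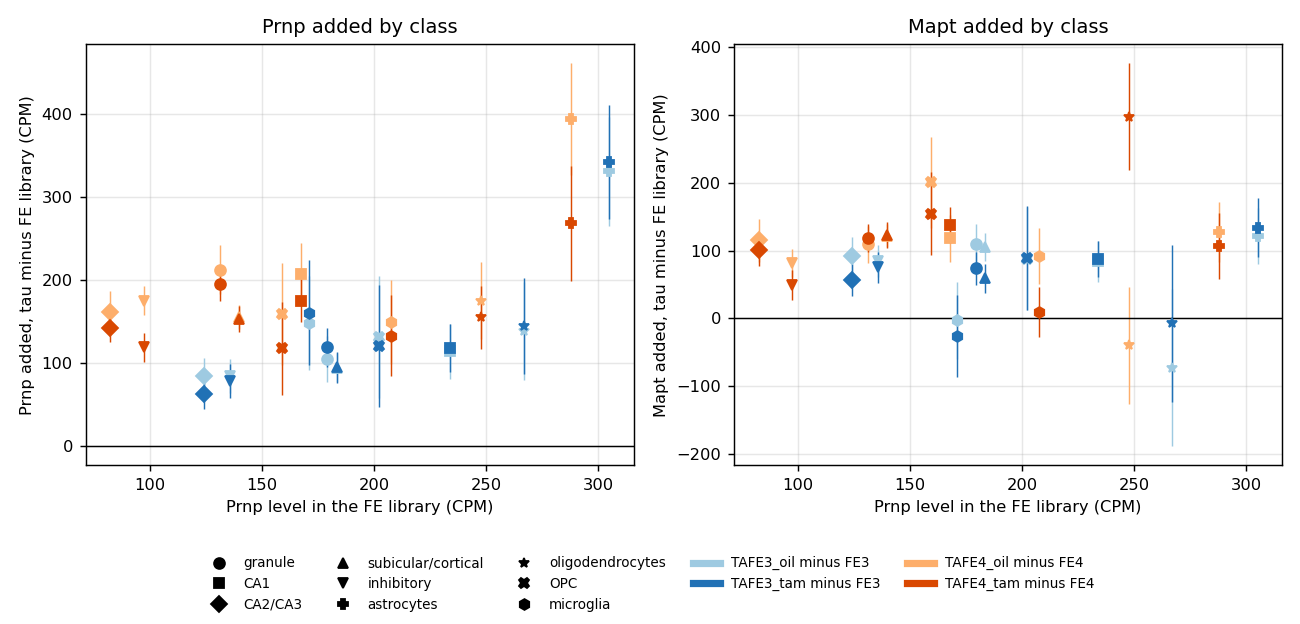
Level added in the TAFE library (CPM, TAFE minus FE) against the Prnp level of the FE library (CPM) for 9 classes, for Prnp and for Mapt, with 1 colour per comparison and 1 symbol per class. Added Prnp is highest in astrocytes (268 to 393 CPM), and added Mapt in oligodendrocytes ranges from -72.5 to 298 CPM.

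The tamoxifen libraries, with their lower astrocyte APOE, were compared with the oil libraries of the same allele, 1 library against 1. Of all gene and class combinations, 3.67% differed by at least 1.5-fold in either direction between TAFE3_tam and TAFE3_oil, and 7.95% between TAFE4_tam and TAFE4_oil. Prnp passed 1.5-fold in 0 of 13 classes in either comparison, a count near those background shares. Mapt was never 1.5-fold higher, and was lower past that fold in choroid plexus (-0.73) and pericytes (-0.68) with APOE3, both with few nuclei, and in microglia (-0.65) with APOE4. In astrocytes, where APOE was lower, Prnp was 636 and 647 CPM in TAFE3_oil and TAFE3_tam and 681 and 556 CPM in TAFE4_oil and TAFE4_tam. Prnp was lower with an interval that excluded 0 in 1 of 13 classes with APOE3 and 2 of 13 with APOE4, among them inhibitory neurons (-0.33). Mapt was lower in this way in 3 of 13 and 2 of 13 classes. It was higher in 0 of 13 and 1 of 13, namely oligodendrocytes of TAFE4_tam, at a log2 ratio of 0.35 against TAFE4_oil.

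The TAFE4 and TAFE3 libraries were compared in the same way, and allele and library cannot be told apart here. TAFE4_oil against TAFE3_oil had a background of 3.87% of combinations past 1.5-fold in either direction, and TAFE4_tam against TAFE3_tam had 6.23%. Over the 9 classes the Prnp ratio ran from -0.07 in OPC to 0.31 in inhibitory neurons for the oil libraries and from -0.22 to 0.26 for the tamoxifen libraries. Mapt ran from -0.11 to 0.23 and from -0.36 to 0.27. None of the 9 classes passed 1.5-fold for either gene, a count near the background shares. Among smaller classes, endothelial cells passed for Prnp at -0.66 and for Mapt at -0.76 in the oil libraries, and for Mapt at -0.92 in the tamoxifen libraries.

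Smaller classes of vessels and borders carried Prnp at levels like those of neurons or above. Endothelial cells had 172 CPM in FE4 and 381 and 367 CPM in TAFE4_oil and TAFE4_tam, with log2 ratios of 1.14 and 1.09. Pericytes had 190 CPM against 396 and 280 CPM, resting on 17 UMIs in FE4. Cajal-Retzius cells, an early-born neuron type of the hippocampal surface, had 126 CPM in FE4 against 265 and 315 CPM. The Mapt log2 ratios for TAFE4_oil and TAFE4_tam were 0.18 and 0.13 in Cajal-Retzius cells, -0.01 and -0.49 in endothelial cells, and 1.16 and 1.15 in pericytes, where FE4 had 10 Mapt UMIs. These ratios were read against FE4 alone. Endothelial cells of FE3, with 39 nuclei, had 315 CPM of Prnp (235 to 413). That interval overlapped those of TAFE4_oil (322 to 447) and TAFE4_tam (300 to 444), while TAFE3_oil and TAFE3_tam had 603 and 479 CPM. Pericytes of FE3, with 30 nuclei, had 315 CPM of Prnp, above the 284 CPM of TAFE3_tam and the 280 CPM of TAFE4_tam. In the choroid plexus TAFE and FE libraries overlapped, with Prnp at 125 and 172 CPM in FE3 and FE4, 207 CPM in TAFE3_oil, 143 CPM in TAFE3_tam and 211 CPM in TAFE4_tam.

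Unnamed clusters were read for the same 2 genes. A cluster with oligodendrocyte markers and high doublet scores had 507 CPM of Mapt over both FE libraries and 578 CPM over the TAFE libraries, and 142 and 257 CPM of Prnp. A cluster with precursor and oligodendrocyte markers together, including Gpr17, a receptor of newly forming oligodendrocytes, had 904.5 CPM of Mapt in FE and 644 CPM in TAFE nuclei, while Prnp was 107 and 233 CPM. The FE value of Prnp there rested on 9 UMIs, and its interval of 49.0 to 203 CPM overlapped the 182 to 292 CPM of the TAFE libraries. A cluster led by stress genes had 75.4 and 713 CPM of Prnp, over 20 FE nuclei and 131 TAFE nuclei.

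The genes around the 2 loci were read in the same comparisons. Of the protein-coding neighbours of Prnp, 5 on each side, 42 to 44 member and class combinations could be read in each comparison. In TAFE3_oil against FE3, 11.9% were at least 1.5-fold higher and 14.3% lower, beside 10.2% and 10.0% of all genes by the same minimum. In TAFE4_oil against FE4 these were 25% and 9.09%, beside 22.9% and 7.32%. In TAFE3_tam against FE3 they were 16.7% and 7.14%, beside 9.37% and 7.43%. In TAFE4_tam against FE4 they were 16.3% and 4.65%, beside 16.4% and 6.05%. By class, 0 to 3 neighbours of Prnp were higher. The most were 3 of 4 in microglia of TAFE3_tam (21.5% of all genes) and 3 of 5 in granule neurons of TAFE4_oil (21.2%). Neighbours of Mapt were higher in 12.5% and 24.4% of 40 and 41 combinations for TAFE3_oil and TAFE4_oil. For TAFE3_tam and TAFE4_tam they were higher in 8.11% and 19.05%. Smox, which encodes spermine oxidase and lies near Prnp, was lower in astrocytes, at 111 CPM in FE3 and 51.5 CPM in TAFE3_oil, and at 100 CPM in FE4 and 56.2 CPM in TAFE4_oil. Sprn, which encodes the prion-like protein Shadoo, was the only family member with enough UMIs. For TAFE3_oil, TAFE3_tam, TAFE4_oil and TAFE4_tam it passed 1.5-fold higher in 0, 0, 1 and 0 of 9 classes. The share of all genes was 10.2%, 9.37%, 22.9% and 16.4%. It passed 1.5-fold lower in 0, 1, 0 and 1 of 9 classes, beside 10.0%, 7.43%, 7.32% and 6.05% of all genes.

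Other microtubule genes were read beside Mapt. Of 25 microtubule-associated protein genes, 33 of 216 member and class combinations were at least 1.5-fold higher in TAFE3_oil against FE3 and 9 were lower (15.3% and 4.17%, beside 10.2% and 10.0% of all genes). In TAFE4_oil against FE4, 78 of 217 were higher and 2 lower (35.9%, beside 22.9%). In the tamoxifen libraries 14 of 211 were higher with APOE3 (6.64%, beside 9.37%) and 54 of 217 with APOE4 (24.9%, beside 16.4%). The stathmins, which bind free tubulin, recurred. Stmn1 in granule neurons was 67.1 CPM in FE3 and 112 CPM in TAFE3_oil, and 43.1 CPM in FE4 and 131 CPM in TAFE4_oil. Stmn4 in microglia was 99.4 and 252 CPM in the APOE3 pair and 97.9 and 237 CPM in the APOE4 pair, although stathmins are known best from neurons. Stmn3 passed in inhibitory neurons, OPC and microglia, and Stmn2 in microglia.

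Tubulins, the subunits of the microtubule itself, split by class and by pair. In TAFE3_oil against FE3, 0 of 10 passed 1.5-fold higher in granule neurons and 7 of 10 in astrocytes, with 15 of 90 combinations over the 9 classes (16.7%, beside 10.2% of all genes). In TAFE4_oil against FE4, 10 of 10 passed in granule neurons and 9 of 10 in astrocytes, with 77 of 91 combinations (84.6%, beside 22.9% of all genes). The total was 11 of 89 in TAFE3_tam against FE3 (12.4%, beside 9.37%) and 23 of 91 in TAFE4_tam against FE4 (25.3%, beside 16.4%). Astrocytes were the class with the most tubulins past the fold in both APOE3 comparisons. Tuba1a, an alpha tubulin, was there 206 CPM in FE3 and 461 CPM in TAFE3_oil, and 182 CPM in FE4 and 426 CPM in TAFE4_oil. Tubb2a, a beta tubulin, was 177 and 333 CPM, and 177 and 340 CPM. Tubb3, the beta tubulin typical of neurons, passed in oligodendrocytes and microglia.

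Partners of the prion protein were read in the same way. In TAFE3_oil against FE3, 7 of 91 combinations were at least 1.5-fold higher and 9 lower (7.69% and 9.89%, beside 10.2% and 10.0% of all genes). In TAFE4_oil against FE4, 27 of 90 were higher (30.0%, beside 22.9% of all genes) and 2 lower. In TAFE3_tam against FE3, 5 of 89 were higher (5.62%, beside 9.37%) and 6 lower. In TAFE4_tam against FE4, 13 of 90 were higher (14.4%, beside 16.4%) and 3 lower. Dpp6, which encodes an auxiliary subunit of potassium channels, was lower in subicular/cortical neurons, at 221 CPM in FE3 and 122 CPM in TAFE3_oil, and at 208 CPM in FE4 and 128 CPM in TAFE4_oil. Its relative Dpp10 was higher there, at 47.0 and 70.7 CPM and at 46.6 and 87.4 CPM. The Rorb and Cux2 cluster made up a larger part of this class in TAFE libraries, and its part in these 2 differences was not tested.

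The genes whose levels were most like those of each member were sought over 54 points, 9 classes in 6 libraries, among 10734 genes, as a description of points that share their libraries. For Prnp the highest Pearson correlations of log2(CPM + 1) were with Gfap (0.92) and Vim (0.90), intermediate filaments of astrocytes, then S100a6 (0.90), Jund (0.90) and Actg1 (0.89). Gfap in astrocytes stood at 318 CPM in FE3, at 344 CPM in FE4 and at 1838, 1642, 1440 and 1521 CPM in the TAFE libraries. Gfap in granule neurons, where it should be absent, stood at 30.3 CPM in FE3, at 15.5 CPM in FE4 and at 81.1 to 199 CPM in the TAFE libraries. Gfap counted outside astrocytes thus differed along with Prnp. Whether astrocyte RNA in other droplets had a part in this, or in the Prnp level of neurons, was not tested. For Mapt the list was Map7 (0.93), Nfasc (0.91), Zfp101 (0.90), Ttll7 (0.90) and Abca2 (0.89), all of them highest in oligodendrocytes among granule neurons, astrocytes, oligodendrocytes and microglia. Map7, another microtubule-binding protein, was there 483 and 448 CPM in FE3 and FE4, 367, 361 and 404 CPM in TAFE3_oil, TAFE3_tam and TAFE4_oil, and 526 CPM in TAFE4_tam, the library that also had the highest oligodendrocyte Mapt level. Prnp and Mapt themselves correlated at 0.31. By Spearman correlation, 4 of the 5 genes were the same for Prnp and 1 of the 5 for Mapt.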

How the data were processed

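Nuclei were profiled in 6 droplet libraries, 1 per group. Per the file headers, the authors deposited UMI counts per gene and barcode made with Cell Ranger 3.1.0, and the submitters' processing notes name Cell Ranger, Seurat and mm10 without saying what Seurat was used for. The labels name 3′ end sequencing but 5′ reagent kits, so which end of each transcript was read is not settled here. The reads were not used.

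The deposited counts were filtered to barcodes with 500 UMIs or more, 300 genes or more and no more than 5% of UMIs from mitochondrial genes. Doublets were scored by simulated doublets, and the top expected share per library (0.8% per 1000 barcodes) was left out. Nuclei were clustered with scanpy 1.11.5 (2000 variable genes, 30 components, 15 neighbours, leidenalg 0.10.2 at resolution 1), and clusters were named from fixed markers. For each class, the counts of a library's nuclei were added up and scaled to the class total (CPM). Levels have exact Poisson intervals, log2 ratios exact conditional binomial intervals, and shares exact Clopper-Pearson intervals (95%, scipy 1.17.1), with counts under 3 set to 3. They cover counting error alone. Ratios needed at least 50 nuclei in both libraries and 20 UMIs of the gene. Background shares used genes with 100 or more UMIs over the libraries compared and 20 CPM in the highest.

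The members and all lists were chosen with earlier results of these data known. Named besides the members were list genes past 1.5-fold in the same direction in both oil comparisons of a class, at most 6 per list and class, and the 5 genes most correlated with each member. List members needed 20 UMIs and 3 CPM. Ratios and intervals were tested on simulated data. The alternatives changed the filters, doublet removal, clustering, scaling (TMM) and the control library.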

Additional observations from a re-analysis of the deposited data

Results flagged for a closer look

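The Mapt log2 ratio in microglia was below 0 in both APOE3 pairs and above 0 in both APOE4 pairs. It was -0.019 for TAFE3_oil and -0.19 for TAFE3_tam against FE3, and 0.75 for TAFE4_oil and 0.10 for TAFE4_tam against FE4. The intervals of TAFE3_oil, TAFE3_tam and TAFE4_tam included 0. Over the other settings tried, the ratio changed sign in these 3 comparisons, reaching 0.21 in TAFE3_oil and 0.11 in TAFE3_tam, and running from -0.66 to 0.48 in TAFE4_tam. The difference between the alleles was not tested, and FE4 and FE3 microglia themselves differed (135 and 211 CPM).

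Some of the 10 clusters that stayed unnamed and entered no class comparison had higher summed levels over the TAFE libraries than over the FE libraries, with intervals that did not overlap. Only such clusters are listed here, and no share of all genes is given beside them. In the unnamed cluster with precursor and oligodendrocyte markers, described above, Mapt was lower in TAFE nuclei and the Prnp intervals overlapped. Prnp was 291 CPM over the TAFE libraries and 154 CPM over the FE libraries in the cluster led by Dcn and Etv1. It was 654 and 464.5 CPM in the cluster with markers of several glial types, where 246 of the 280 FE nuclei came from FE4. By library that cluster had 685 CPM in FE3, above 595 CPM in TAFE3_oil and 516 CPM in TAFE3_tam. In the cluster with markers of fibroblasts, smooth muscle and endothelium it was 409.65 and 306 CPM. The cluster with oligodendrocyte markers and high doublet scores gave 257 and 142 CPM, and the cluster with microglia and oligodendrocyte markers 344.45 and 147 CPM. Mapt was 304 and 212 CPM, 295 and 161 CPM, and 155 and 97.9 CPM in the first 3 of these clusters. In the glial cluster of these, Mapt was 252 CPM in FE3, above 240 CPM in TAFE3_tam and 199.7 CPM in TAFE4_tam.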

How the results depend on the processing

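No paired analysis was possible because each group is 1 library. Alternatives with the doublet caller's own threshold, those that left out or replaced a library, and those for the number of classes with all TAFE libraries above both FE libraries were chosen after seeing the data. Among the log2 ratios of Prnp in astrocytes and microglia and of Mapt in oligodendrocytes, none whose interval excluded 0 changed its sign under these alternatives. Prnp in astrocytes was 0.77 for TAFE3_oil, 1.47 for TAFE4_oil and 1.16 for TAFE4_tam with the caller's own threshold, and for TAFE4_oil 0.98 without a mitochondrial limit, 1.00 with TMM and 1.02 with nuclei weighted equally. Prnp in microglia for TAFE4_oil and TAFE4_tam was 1.28 and 1.31 over nuclei of 1000 or more UMIs and 1.12 and 1.16 with the caller's own threshold. It was 0.15 for TAFE4_oil with at most 1% mitochondrial UMIs and 1.04 for TAFE4_tam with doublets kept. Mapt in oligodendrocytes was 0.12 and 0.45 for TAFE4_oil and TAFE4_tam over nuclei of 1000 or more UMIs, 0.11 for TAFE4_oil with at most 1% mitochondrial UMIs, and -0.28 and 0.19 with TMM.

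The limit of 1% left fewer classes with enough nuclei. Prnp then passed 1.5-fold in 3 of 5, 3 of 5 and 6 of 8 classes for TAFE3_oil, TAFE3_tam and TAFE4_oil, with all TAFE libraries above both FE libraries in 5 of 5. Mapt passed in 0 of 5, 0 of 5, 1 of 8 and 3 of 10 classes for TAFE3_oil, TAFE3_tam, TAFE4_oil and TAFE4_tam. Mapt also passed in 4 of 13 and 2 of 13 classes for TAFE3_oil and TAFE3_tam without a mitochondrial limit, in 1 of 10 for TAFE3_oil with doublets kept or at clustering resolution 0.5, and in 4 of 12 and 3 of 13 for TAFE4_oil and TAFE4_tam with TMM. With FE3 in place of FE4 it passed in 4 of 9 and 2 of 10. For these the cause was not tested. The share of all genes past 1.5-fold is given for the main settings only, so these counts cannot be read against a background. Without 1 library at a time, the remaining TAFE libraries lay above the remaining FE libraries in 9 classes for Prnp. For Mapt this held in 7 to 8 classes, the 8 without FE3. Leaving out a library cannot lower these counts, so they are no check of the separation.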

Other observations

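Values outside the comparisons come from classes with few nuclei. T cells had 52 nuclei in TAFE4_tam, with 584 CPM of Prnp and 79.6 CPM of Mapt, and at most 18 nuclei in any other library. Border macrophages numbered 20 to 50 per library, with 221 to 420 CPM of Prnp and 134 to 405 CPM of Mapt. Fibroblasts numbered 31 to 61, with 138 and 170 CPM of Prnp in the FE libraries and 249 to 313 CPM in the TAFE libraries.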
